A study of Mus musculus with 96 samples.

Results

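The transcription factor p53 (gene Trp53) and 9 genes that it is known to switch on directly were followed through 7 RNA-seq count tables of mouse embryonic stem cells (ESCs). The 9 targets were Mdm2, Cdkn1a, Ccng1, Sesn2, Trp53inp1, Phlda3, Bbc3, Zmat3 and Eda2r. The genes were taken by symbol alone, with no measured value in the rule, although earlier results of these data were known when they were chosen. They are 10 of the 37620 genes counted in every table. All 10 were found in all 7 tables, and all 10 passed the filter on low counts in each of them.

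The study asked how the Polycomb protein RYBP works with Trithorax proteins, such as WDR5, and with the transcription factor STAT3 in ESCs. RNA-seq was made from 26 libraries, and peak lists from chromatin immunoprecipitation (ChIP-seq) were deposited beside it. Each comparison set 2 perturbed libraries against 2 controls. The methods speak of biological replicates for ChIP-seq, and neither labels nor methods say it of the RNA-seq libraries, so the p-values measure the spread between these libraries, which may be technical.

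The groups were as follows. In the R7.15 line, which carries floxed Rybp alleles and a Rosa26::CreERT2 recombinase that 4-hydroxytamoxifen (4-OHT) switches on, 4-OHT was added at 5 µM over 4 days to obtain the Rybp-/- cells, and Rybp+/+ cells went without it. The loss of Rybp and the exposure to 4-OHT therefore cannot be told apart in that comparison. In the R1 line, cells with a short hairpin against Rybp (shRybp) or against Wdr5 (shWdr5) were each compared with the same empty-vector cells (shEV). The lowering of the targeted gene and the presence of a hairpin therefore cannot be told apart in these comparisons. The rTRS line carries a doxycycline (DOX) inducible integration of Rybp and Stat3, and its libraries labelled DOX were compared with those labelled NTC. The J1 line with Tet on.RYBP was given DOX or vehicle. Expression from the transgenes and exposure to DOX therefore cannot be told apart in the rTRS and J1 comparisons. In R1, cells with the TF-AA mutation, which the labels do not explain, were compared with wild-type (WT) ESCs. Finally, R7.15 cells that express either WT RYBP or RYBP with a 21aa deletion, called RYBP phase disruption, were compared with each other, and both of these groups carry the floxed alleles and CreERT2 and received 4-OHT.

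As background, p53 is made continuously and destroyed continuously in healthy cells. MDM2, an E3 ubiquitin ligase, marks p53 for destruction, and since Mdm2 is itself a p53 target the pair forms a feedback loop. DNA damage, ribosomal stress and oncogene activity break this loop, p53 protein builds up without a need for more Trp53 mRNA, and its targets are transcribed. These targets slow the cell cycle, adjust metabolism and lower the threshold for apoptosis. ESCs are known to carry much Trp53 mRNA, and RYBP has been reported to bind MDM2.

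The p53 protein binds a pair of decamers, each with 3 purines, C, 2 bases that are A or T, G and 3 pyrimidines, with up to 13 bases between them. These letters were searched on both strands in the mm9 genome within 3 kb of the annotated start sites, and the matches are shown because the 9 targets are defined by p53 binding. Of the 10 genes, 3 held an exact full site, against 2.96% of 22380 protein-coding genes. Within 1 kb only Cdkn1a held an exact site, against 1.03% of coding genes. The exact site of Cdkn1a lies outside the gene at chr17:29227851-29227882 on the plus strand, with its middle 58 bp before the most upstream annotated start. That of Trp53inp1 lies at chr4:11082259-11082279, 1309 bp before the start, also on the plus strand and outside the gene. That of Zmat3 lies in an intron at chr3:32263253-32263272, 1120 bp after the nearest annotated start, which is not the most upstream one, and read here on the minus strand like the gene. The decamers are in capitals and 10 bases on each side are in lower case, read 5′ to 3′.
Cdkn1a: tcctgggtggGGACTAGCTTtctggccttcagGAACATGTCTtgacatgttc
Trp53inp1: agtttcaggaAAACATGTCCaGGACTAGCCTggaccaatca
Zmat3: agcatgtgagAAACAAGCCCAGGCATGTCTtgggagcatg

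With 1 mismatch allowed, 6 of the 10 genes held a site within 3 kb, against 25.7% of coding genes, and Mdm2, Ccng1 and Bbc3 joined the list. The match of Mdm2, at chr10:117128941-117128968 in an intron, is no site at the upstream end of the gene (117147814, minus strand): it counts through the start of a short transcript annotated inside the gene. Ccng1 held such a site at chr11:40568964-40568983, 160 bp before its start and outside the gene, and another in an intron at chr11:40568438-40568457. A second match of Cdkn1a, with 1 mismatch and no spacer, overlaps its exact site at chr17:29227873-29227892.
Ccng1, before the start: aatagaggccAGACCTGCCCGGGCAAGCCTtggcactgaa
Ccng1, intron: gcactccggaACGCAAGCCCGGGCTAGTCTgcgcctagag
Cdkn1a, overlapping match: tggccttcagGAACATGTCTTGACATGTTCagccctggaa
These matches describe letters in the reference genome, and binding of p53 was not measured in the files used here. No site of these letters was seen within 3 kb of the starts of Trp53, Sesn2, Phlda3 or Eda2r.

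The libraries held 14512857 to 81049618 counts on genes, and the least covered value of any of the 10 genes was 198 counts, for Bbc3 in a TF-AA library. Rybp fell from 110.4 and 110.2 CPM (counts relative to library size, scaled by trimmed means of M values) in Rybp+/+ to 24.8 and 25.0 in Rybp-/-, and from 85.7 and 86.4 in shEV to 35.8 and 36.6 in shRybp. Wdr5 fell from 349.8 and 343 CPM in shEV to 60.05 and 58.2 in shWdr5, and Rybp rose from 135 and 145 to 522 and 535 CPM with DOX in the Tet on.RYBP cells. Each knockdown also moved the other gene. Wdr5 fell from 372 and 364 CPM in shEV to 265 and 260 in shRybp (-0.49, adjusted p = 2.7e-08). Rybp rose from 79.9 and 81.3 CPM in shEV to 121 and 117 in shWdr5 (0.56, adjusted p = 3.8e-09). Wdr5 was called lower in Rybp-/- (-0.14, adjusted p = 5e-04) and in the rTRS libraries labelled DOX (-0.38, adjusted p = 2e-04) as well. The rTRS libraries labelled DOX went against their label for Rybp, which read 113 and 110.5 CPM in NTC and 102 and 99.8 CPM in DOX (adjusted p = 0.076), while Stat3 rose by 0.20 on the log2 scale (adjusted p = 0.026). Directions drawn from them below are those of the libraries labelled DOX. Replicate 2 of these comes from a column headed S5 rather than rTRS, and without it the call of Trp53inp1 was lost and Bbc3 was called. In the RYBP phase disruption table Rybp read 749 and 753.5 CPM in the WT RYBP cells and 662 and 626 in the deletion cells (-0.22, adjusted p = 6.8e-05), and Wdr5 (-0.24, adjusted p = 0.00042) and Stat3 (-0.27, adjusted p = 0.00016) were also called lower there. In the TF-AA table Rybp read 122 and 139 CPM in WT ESC and 112 and 118 in TF-AA (-0.19, adjusted p = 0.096). The 5 ESC markers Pou5f1, Nanog, Sox2, Zfp42 and Esrrb had counts in every library, and their summed level ranged from 1850 to 5469 CPM. In bulk RNA, fewer cells of a type and less RNA per cell cannot be told apart.

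Across the 7 comparisons the 9 targets moved in different ways, and Trp53 mRNA was called in 3 of them. With edgeR's quasi-likelihood test and Benjamini-Hochberg adjustment over all genes, a gene was called at an adjusted p under 0.05. In the WDR5 knockdown all 10 genes rose, where 31.5% of 15143 genes tested were called higher and 31.5% lower. In the RYBP knockdown 8 rose and none fell, where 26.8% of genes were called higher and 26.0% lower. Both knockdowns share the shEV libraries, so they are not independent of each other.

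The opposite direction was seen in the RYBP phase disruption cells, in which 9 of the 10 genes fell and none rose, where 17.0% of genes were called lower and 16.1% higher. Of the 10 genes, 6 rose and 3 fell in the Rybp knockout, where 22.8% of genes were called higher and 22.7% lower. There were 3 rises and 4 falls in the rTRS libraries labelled DOX, against 23.0% and 20.4% of genes. With RYBP induction in the Tet on.RYBP cells 2 rose and none fell, against 3.63% and 2.39% of genes. In the TF-AA mutation cells 2 rose and 2 fell, against 14.4% and 16.1% of genes. Asking for a log2 fold change above 1 in size as well left 7 genes in the WDR5 knockdown, beside 18.6% of all genes, and 4 in the RYBP knockdown, beside 12.6%. It left none in the Rybp knockout (7.84% of all genes), the rTRS libraries (12.0%), RYBP induction (0.904%), the TF-AA mutation (8.14%) or the phase disruption (6.77%).

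The median log2 fold change of the 10 genes was 1.45 in the WDR5 knockdown, 0.93 in the RYBP knockdown, 0.20 with RYBP induction, 0.12 in the Rybp knockout, 0.01 in the rTRS libraries labelled DOX, -0.11 in the TF-AA mutation cells and -0.60 in the RYBP phase disruption cells. The median over all genes tested lay between -0.01 and 0.02 in each table. Scaling by library size alone moved the all-gene median of the RYBP knockdown to 0.18, and 71.2% of its calls were then higher in place of 50.8%. It moved that of the RYBP phase disruption table to 0.06, with 61.7% of calls higher in place of 48.7%. The 8 targets that rose in the former and the 9 that fell in the latter did so under that scaling too.

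**Figure D1:**
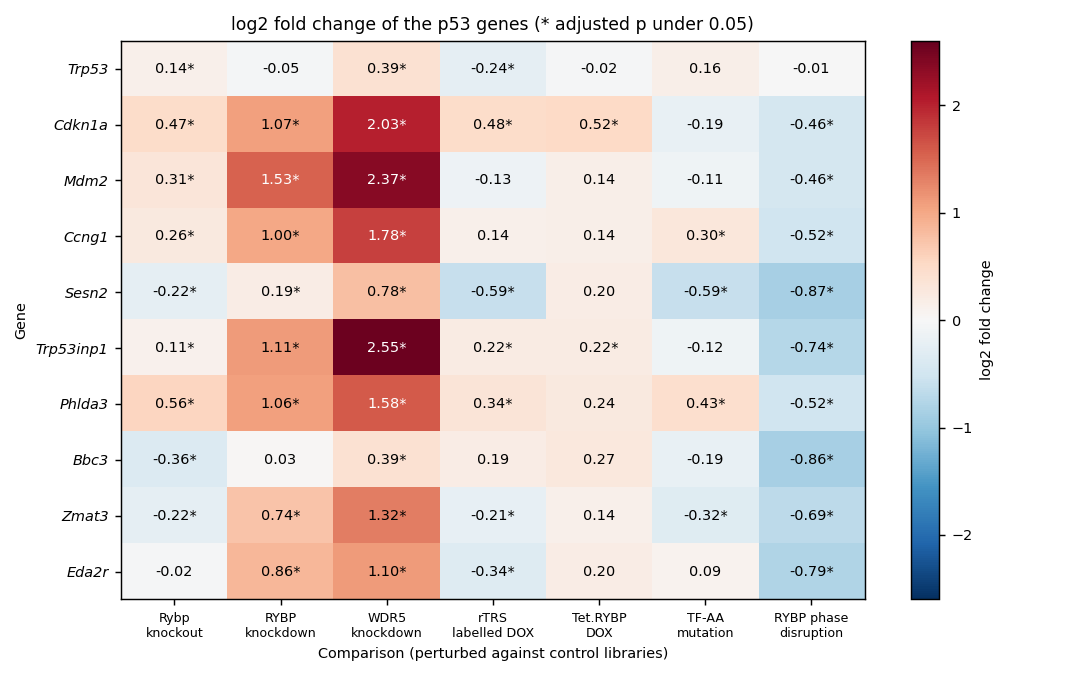
Fitted log2 fold change (colour and printed number) of each of the 10 genes (rows) in each of the 7 comparisons (columns), perturbed against control libraries, with a star where the adjusted p was under 0.05. The WDR5 knockdown column is positive throughout, from 0.39 to 2.55, and the RYBP phase disruption column holds 9 starred negative values, from -0.46 to -0.87.

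Trp53 itself (chr11:69393861-69405375, plus strand) was expressed at a high and even level. As CPM per kilobase of exon (FPKM) it stood between 106 and 136 in the controls of the 7 tables, above the other 9 genes in 4 of them. Phlda3 stood above it in both shEV sets, at 160 and 151 FPKM against 136 and 128, and Ccng1 in the WT RYBP cells, at 133 against 106. Its reads may include some from Trp53-ps, a pseudogene that resembles it and is counted as a gene of its own.

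Trp53 read 541 and 561 CPM in shEV and 533 in both shRybp libraries, a log2 fold change of -0.05 (SE 0.0412, adjusted p = 0.37). In the WDR5 table it rose from 510 and 529 CPM to 683 and 679, by 0.39 on the log2 scale (adjusted p = 2.2e-08). A smaller rise, from 445 and 464 to 509 and 491 CPM, was seen in the Rybp knockout (0.14 on the log2 scale, adjusted p = 0.00041). The groups did not overlap in the latter pair of comparisons, but the rise in the knockout was 1.1-fold.

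In the rTRS libraries labelled DOX, Trp53 fell from 435 and 434 CPM to 365 and 371, by 0.24 on the log2 scale (adjusted p = 0.0033). In the RYBP phase disruption cells, where 9 targets fell, Trp53 mRNA read 421 and 437 CPM in WT RYBP and 430 and 423 CPM in the deletion cells, and the groups overlapped (log2 fold change -0.01, adjusted p = 0.91). With RYBP induction the groups overlapped too (-0.02, adjusted p = 0.85), and in the TF-AA mutation cells the value was 0.16 (adjusted p = 0.11).

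Mdm2 (chr10:117125944-117147814, minus strand) encodes the ligase that closes the loop on p53. It read 150 and 136 CPM in shEV and 414 and 416 CPM in shRybp, a 2.9-fold rise (log2 fold change 1.53, SE 0.0507, adjusted p = 4.7e-14), which was the largest of the 10 genes in the RYBP knockdown. In the WDR5 table it read 140.5 and 128 CPM in shEV and 706 and 682 CPM in shWdr5, a 5.16-fold rise (2.37, adjusted p = 8.2e-21). The gap between groups was many times the spread within them in both knockdowns.

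Mdm2 rose in the Rybp knockout from 204 and 196 CPM to 245 and 251 (0.31, SE 0.0335, adjusted p = 2.7e-09), a smaller but separated shift. Mdm2 fell in the RYBP phase disruption cells from 400 and 391 CPM to 281 and 294 (-0.46, adjusted p = 5.2e-10). In the other 3 tables Mdm2 did not pass the test, with log2 fold changes of -0.13 in the rTRS libraries labelled DOX, 0.14 with RYBP induction and -0.11 in the TF-AA mutation cells. Over the settings tried these values ran from -0.14 to -0.11, from 0.11 to 0.18 and from -0.21 to -0.009. None of them stayed on the same side of the threshold in every setting. WT RYBP cells held the most Mdm2 of the 7 control groups on this scale, although tables of different lines were processed separately.

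**Figure D2:**
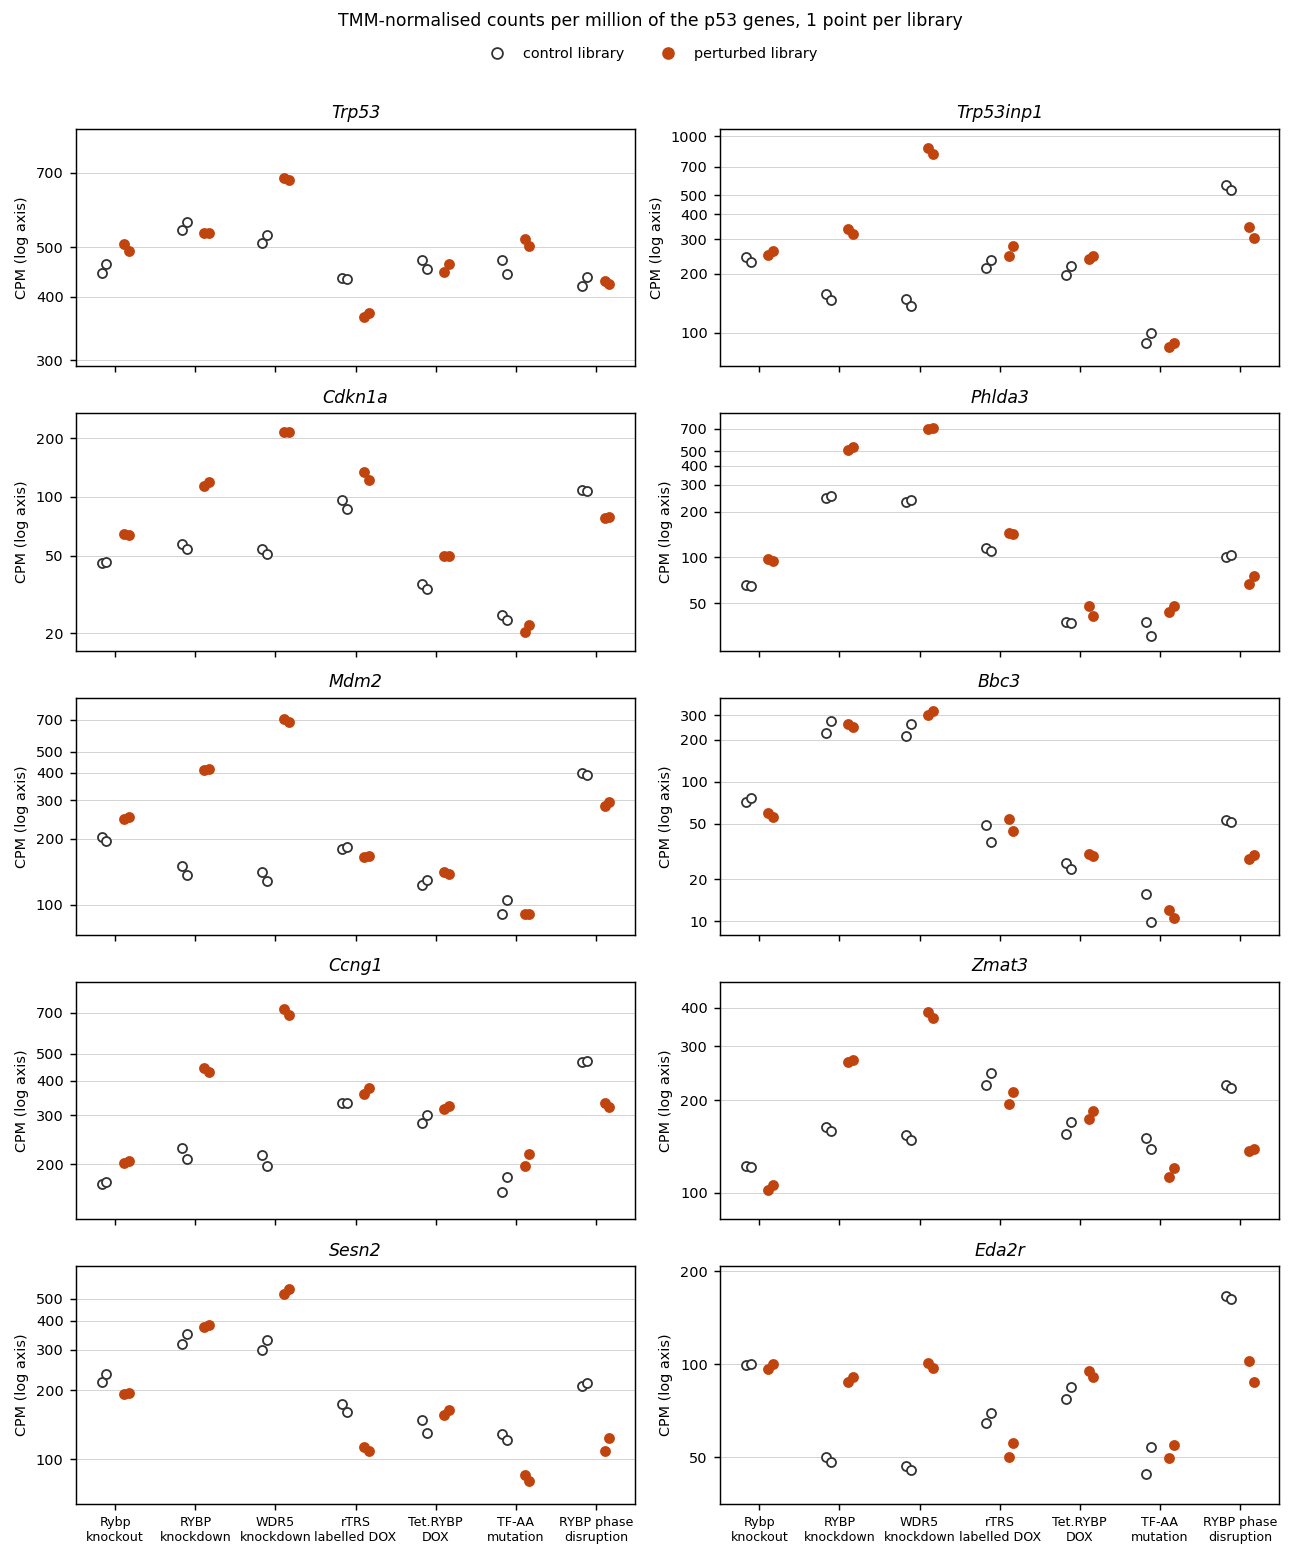
TMM-normalised CPM (log axis, its range differing between panels) of each of the 10 genes in every library, with open circles for the 2 control and filled circles for the 2 perturbed libraries of each comparison. For Mdm2 the shWdr5 libraries sit at 706 and 682 CPM above shEV at 140.5 and 128, while the RYBP phase disruption libraries sit below their controls in every panel but Trp53.

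The cell cycle targets rose with either hairpin. Cdkn1a (chr17:29227924-29237667, plus strand) encodes p21, an inhibitor of cyclin-dependent kinases and the best known arm of the p53 arrest. It read 57.1 and 53.8 CPM in shEV and 113 and 119.3 CPM in shRybp, a 2.09-fold rise (log2 fold change 1.07, SE 0.0574, adjusted p = 2.5e-11). In the WDR5 table it rose from 53.9 and 50.8 CPM to 214 in both shWdr5 libraries (2.03, SE 0.0538, adjusted p = 5e-19). These increases brought Cdkn1a from 24.9 to 52.3 FPKM and from 23.6 to 96.2 FPKM.

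Cdkn1a was called in 6 of the 7 comparisons, 5 times higher and once lower. It rose from 45.7 and 46.3 CPM to 64.2 and 63.7 in the Rybp knockout (0.47, adjusted p = 3.8e-10). With RYBP induction it rose from 35.7 and 33.7 CPM to 49.6 and 49.8 (0.52, adjusted p = 0.00019). Cdkn1a was thus higher where Rybp mRNA was lowered and also where DOX raised it. It also rose in the rTRS libraries labelled DOX, from 96.8 and 86.9 CPM to 134 and 122.5 (0.48, adjusted p = 0.00022). The fall was in the RYBP phase disruption cells, from 108 and 107 CPM to 78.2 and 78.5 (-0.46, adjusted p = 1.7e-07). In the TF-AA mutation cells the value was -0.19 (adjusted p = 0.23).

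Ccng1 (chr11:40562054-40568813, minus strand) encodes cyclin G1, which recruits a phosphatase to MDM2. It read 229 and 209 CPM in shEV and 444 and 430 CPM in shRybp, a log2 fold change of 1.00 (SE 0.0491, adjusted p = 7.9e-12). In shWdr5 it read 723 and 688 CPM against 215 and 196.5 in shEV (1.78, adjusted p = 7.9e-19). It rose less in the Rybp knockout, from 169 and 172.5 CPM to 202 and 206 (0.26, adjusted p = 1.5e-07). All of these groups were separated.

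Ccng1 fell from 467 and 469 CPM to 331 and 320.1 in the RYBP phase disruption cells (-0.52, adjusted p = 1.2e-11). In the TF-AA mutation cells it rose from 158 and 180.0 CPM to 197.5 and 218 (0.30, adjusted p = 0.0085), a call that is lost without TF-AA replicate 2 (0.22, adjusted p = 0.25). It was 0.14 in both the rTRS libraries labelled DOX (adjusted p = 0.066) and the Tet on.RYBP cells (adjusted p = 0.093).

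Sesn2 (chr4:132047947-132066416, minus strand) encodes sestrin 2, a stress protein that restrains mTORC1 and is also induced by the factor ATF4, and like Zmat3 it fell in 4 comparisons and rose in 2. It rose from 299 and 330 CPM to 524 and 553 in the WDR5 knockdown (0.78, SE 0.0486, adjusted p = 2.5e-12). In the RYBP knockdown it read 317 and 350.2 CPM in shEV and 376 and 385.5 CPM in shRybp (0.19, adjusted p = 0.003), a call that is lost without shRybp replicate 2 (0.17, adjusted p = 0.05). In the Rybp knockout it fell from 216 and 235 CPM to 193 in both libraries (-0.22, adjusted p = 4.4e-06).

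Larger falls of Sesn2 were seen elsewhere. It fell from 208 and 215 CPM to 108 and 124 in the RYBP phase disruption cells (-0.87, SE 0.056, adjusted p = 2.3e-14), close to that of Bbc3 and the largest fall of the 10 genes there. In the TF-AA mutation cells it fell from 128 and 121 CPM to 85.4 and 80.1 (-0.59, adjusted p = 4.6e-06), and in the rTRS libraries labelled DOX from 174 and 161 to 113 and 109 (-0.59, adjusted p = 1.4e-05). With RYBP induction the groups were separated, at 148 and 131 against 155.5 and 164 CPM, but the test was not passed (0.20, adjusted p = 0.052).

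Among the targets tied to apoptosis and survival signalling, Trp53inp1 and Phlda3 rose in 5 comparisons each and Bbc3 in 1. Trp53inp1 (chr4:11083578-11101526, plus strand) encodes a nuclear cofactor that helps p53 phosphorylation and autophagy. It showed the largest change of the 10 genes in any comparison, from 148 and 137 CPM in shEV to 868 and 807 in shWdr5, a 5.87-fold rise (2.55, SE 0.0502, adjusted p = 4.7e-21). In shRybp it read 337 and 319 CPM against 158 and 146 in shEV (1.11, adjusted p = 2.5e-12). It fell from 561.5 and 530.5 CPM to 347 and 305 in the RYBP phase disruption cells (-0.74, adjusted p = 4.1e-14).

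The other rises of Trp53inp1 were small and rested on few libraries. Trp53inp1 went in the knockout from 242 and 228.5 CPM to 249 and 260 (0.11, adjusted p = 0.0077), and this call is lost without Rybp+/+ replicate 2 (0.07, adjusted p = 0.08) or without Rybp-/- replicate 2 (0.08, adjusted p = 0.21). It was 0.22 with RYBP induction (adjusted p = 0.012), a call lost without either DOX library, and 0.22 in the rTRS libraries labelled DOX (adjusted p = 0.026), a call lost without NTC replicate 1 or DOX replicate 2. In the TF-AA mutation cells its groups overlapped (-0.12, adjusted p = 0.31).

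Phlda3 (chr1:137662696-137665713, plus strand) encodes a small pleckstrin homology protein that competes with AKT for membrane lipids. It was the most abundant of the 10 genes per kilobase in both knockdowns, at 334 FPKM in shRybp and 452 FPKM in shWdr5. Its CPM rose from 245 and 253 in shEV to 511 and 531.5 in shRybp (1.06, SE 0.0441, adjusted p = 7.3e-13) and from 231 and 238 to 701 and 707 in shWdr5 (1.58, adjusted p = 7.6e-19). It had the largest rise of the 10 genes in the Rybp knockout, from 65.4 and 64.95 CPM to 98.2 and 94.1 (0.56, SE 0.0419, adjusted p = 5.5e-13).

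Phlda3 also rose in the TF-AA mutation cells, from 37.7 and 30.4 CPM to 44.0 and 47.7 (0.43, adjusted p = 0.0033), a call lost without TF-AA replicate 2 (0.36, adjusted p = 0.062). It rose from 116 and 110.4 CPM to 145 and 143 in the rTRS libraries labelled DOX (0.34, adjusted p = 0.00081). It fell from 101 and 103 CPM to 67.4 and 75.0 in the RYBP phase disruption cells (-0.52, adjusted p = 5.5e-08), and with RYBP induction it was 0.24 (adjusted p = 0.13).

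Bbc3 (chr7:16894965-16903554, plus strand) encodes PUMA, a BH3-only protein that triggers mitochondrial apoptosis. In the RYBP knockdown it did not follow the other targets: it read 223.5 and 274 CPM in shEV and 260.0 and 246 CPM in shRybp, so the groups overlapped (0.03, SE 0.0671, adjusted p = 0.78). The sign of this value turned when shEV replicate 1 was left out (-0.12, adjusted p = 0.038), and leaving out shEV replicate 2 gave 0.17 (adjusted p = 0.0031). It rose in the WDR5 knockdown from 213 and 260.5 CPM to 299 and 319.5 (0.39, adjusted p = 1.4e-05), and this value was 0.25 without shEV replicate 1 and 0.54 without shEV replicate 2.

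Bbc3 fell in the Rybp knockout, from 72.0 and 76.3 CPM to 59.4 and 56.3 (-0.36, SE 0.046, adjusted p = 8.8e-08), where Cdkn1a, Mdm2 and Phlda3 rose. A larger fall, in the RYBP phase disruption cells, was from 53.2 and 51.7 CPM to 28.0 and 29.8 (-0.86, adjusted p = 3.1e-10). It did not pass the test with RYBP induction (0.27, adjusted p = 0.13), in the rTRS libraries labelled DOX (0.19, adjusted p = 0.24) or in the TF-AA mutation cells (-0.19, adjusted p = 0.45). The last 2 values rested on single libraries. For rTRS, it was 0.40 (adjusted p = 0.0029) without NTC replicate 1 and 0.33 (adjusted p = 0.0083) without DOX replicate 2, both past the threshold, but 0.006 (adjusted p = 0.98) without NTC replicate 2 and 0.04 (adjusted p = 0.83) without DOX replicate 1. For TF-AA, it was -0.48 (adjusted p = 0.009) without WT ESC replicate 2 and 0.18 (adjusted p = 0.47) without WT ESC replicate 1. Its level differed widely between tables, from 6.4 FPKM in the WT ESCs of the TF-AA table to 124 FPKM in shEV, both of the R1 line.

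Zmat3 (chr3:32233718-32264600, minus strand) encodes a zinc finger protein that binds RNA and acts on splicing and mRNA stability. It rose from 163.5 and 159 CPM to 267.5 and 270.4 in the RYBP knockdown (0.74, SE 0.0463, adjusted p = 2.1e-10) and from 154 and 149 to 389 and 370 CPM in the WDR5 knockdown (1.32, adjusted p = 8.9e-17). In the Rybp knockout it fell from 122.5 and 121 CPM to 102 and 106 (-0.22, adjusted p = 8.7e-06), so the 2 ways of lowering RYBP gave opposite directions.

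Zmat3 fell in 3 further comparisons. In the RYBP phase disruption cells it went from 224 and 219 CPM to 137 and 139 (-0.69, adjusted p = 4e-13), and in the TF-AA mutation cells from 151 and 139 to 113 and 121 (-0.32, adjusted p = 0.0042), a call lost without TF-AA replicate 1 (-0.27, adjusted p = 0.16). In the rTRS libraries labelled DOX it was -0.21 (adjusted p = 0.028), a call lost without NTC replicate 2 (adjusted p = 0.24) or DOX replicate 1 (adjusted p = 0.2).

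Eda2r (chrX:94529179-94572555, minus strand) encodes a receptor of the tumour necrosis factor family that binds ectodysplasin A2. It rose from 50.2 and 48.4 CPM to 87.7 and 90.7 in the RYBP knockdown (0.86, SE 0.0578, adjusted p = 5.8e-10) and from 46.9 and 45.7 to 101 and 97.1 in the WDR5 knockdown (1.10, adjusted p = 1.3e-13). In the Rybp knockout it stood at 99.8 and 100.5 CPM in Rybp+/+ and 96.4 and 100.5 in Rybp-/- (-0.02, adjusted p = 0.65). It fell in the RYBP phase disruption cells, from 166 and 163 CPM to 102 and 87.7 (-0.79, adjusted p = 1.1e-12), and in the rTRS libraries labelled DOX, from 64.4 and 69.5 to 50.1 and 55.8 (-0.34, adjusted p = 0.0044). It was 0.20 with RYBP induction (adjusted p = 0.086) and 0.09 in the TF-AA mutation cells (adjusted p = 0.55).

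Whether lowering RYBP by hairpin and by deletion moved the genes by the same amount was then tested as an interaction, in a model over both tables that was added after their values were known. Of 18203 genes tested, 18.2% were called higher in the knockdown than in the knockout and 22.2% lower. Among the 10 genes, the 9 targets were called higher and Trp53 lower. The difference in log2 fold change was largest for Mdm2, at 1.20 (SE 0.0601, adjusted p = 4.6e-13), followed by Trp53inp1 at 0.97 (SE 0.0623, adjusted p = 2.4e-11) and Zmat3 at 0.94 (SE 0.0572, adjusted p = 1e-11). For Trp53 it was -0.21 (SE 0.0506, adjusted p = 0.002), a call lost with scaling by library size alone (-0.05, adjusted p = 0.48). The difference for Bbc3, 0.36 (adjusted p = 0.0025), lost its call with DESeq2 (0.35, adjusted p = 0.073).

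The 2 experiments differ in the cell line (R1 and R7.15), in the agent (hairpin and 4-OHT) and in the Rybp mRNA counted, which was 0.420 times the control in shRybp and 0.226 times in Rybp-/-. Counts per gene do not separate intact Rybp mRNA from transcripts of the recombined allele, so these ratios do not measure the RYBP left. Which of the line, the agent and the Rybp level goes with the difference cannot be told apart.

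**Figure D3:**
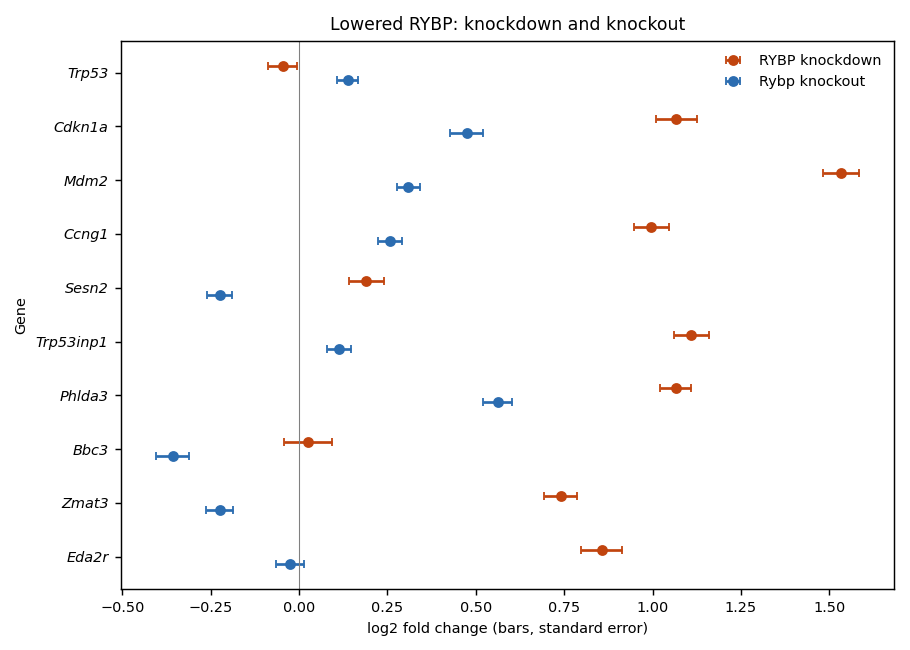
Fitted log2 fold change (points) with its standard error (bars) of each of the 10 genes in the RYBP knockdown and in the Rybp knockout. The knockdown points lie to the right of the knockout points for the 9 targets and to the left for Trp53. The points come from the separate fits. The interaction model put the difference at 1.20 for Mdm2 and at -0.21 for Trp53, the latter not called with scaling by library size alone.

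Other genes known as p53 targets were counted by the same fits, from a list of 32. This list was drawn up with earlier results of these data known, so its counts are a description and no independent support. In the WDR5 knockdown 28 rose and 1 fell (median log2 fold change 0.90), beside 31.5% of all tested genes called higher and 31.5% lower. In the RYBP knockdown 25 rose and 2 fell (median 0.51), beside 26.8% of all genes higher and 26.0% lower. Examples from the RYBP knockdown were Perp, a desmosomal protein tied to apoptosis, which rose from 23.8 and 25.6 CPM to 133 and 135.5 (2.44, adjusted p = 2.7e-15), and Sfn, the checkpoint protein 14-3-3 sigma, which rose from 106 and 108 to 435 and 452 CPM (2.05, adjusted p = 1.7e-15). In the WDR5 knockdown Trp73, which encodes the p53 relative p73, rose from a mean of 24.0 to 204 CPM (3.09, adjusted p = 4.7e-21).

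In the RYBP phase disruption cells 19 of these 32 genes fell and 4 rose (median -0.27), beside 17.0% of all genes lower and 16.1% higher. Trp73 fell there from 13.0 and 14.2 CPM to 4.55 and 4.71 (-1.55, adjusted p = 3.9e-09) and Plk2, a polo-like kinase, from 214 and 210.1 to 138 and 130.2 CPM (-0.66, adjusted p = 1.8e-12). For the Rybp knockout, 17 rose and 6 fell (median 0.16), beside 22.8% of all genes higher and 22.7% lower. Btg2, an antiproliferative factor, rose there from 36.0 and 36.7 CPM to 75.0 and 78.8 (1.08, adjusted p = 9.3e-19), and Ddit4, an mTORC1 inhibitor that other stresses also induce, fell from 253 and 245 to 131 and 123 CPM (-0.97, adjusted p = 9.4e-21). Ddit4 moved the other way in the RYBP knockdown, from 80.4 and 77.8 CPM to 275.5 and 280.3 (1.81, adjusted p = 4.4e-15).

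The other 3 comparisons gave fewer calls in the list of 32. In the rTRS libraries labelled DOX 11 rose and 8 fell (median 0.07), beside 23.0% of all genes higher and 20.4% lower. With RYBP induction 5 of the 30 tested rose and none fell (median 0.13), where 3.63% of all genes were called higher and 2.39% lower. Among them was Pmaip1, which encodes NOXA and rose from 31.2 and 32.7 CPM to 45.0 and 46.2 (0.51, adjusted p = 0.00032). In the TF-AA mutation cells 3 of the 31 tested rose and 3 fell (median 0.02), beside 14.4% of all genes higher and 16.1% lower.

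Genes of G2 and M phase, whose transcription falls when p21 engages the DREAM repressor, were counted from a list of 12. In the RYBP knockdown 10 fell and none rose (median -0.45), where 26.0% of all genes were called lower. Examples were Mybl2, which fell from 1409 and 1450.0 CPM to 906 and 917 (-0.65, adjusted p = 6.6e-11) and the kinase Plk1 from 309 and 323 to 209.8 and 219 CPM (-0.56, adjusted p = 1.1e-08). In the WDR5 knockdown 9 fell and 2 rose (median -0.27, with 31.5% of all genes called in each direction), and Cdkn1a rose further there than in the RYBP knockdown. A part of p21 in the values of these genes was not tested. In the Rybp knockout 4 rose and 4 fell (median -0.02), beside 22.8% and 22.7% of all genes, and these 8 calls were 5 without Rybp-/- replicate 1.

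In the rTRS libraries labelled DOX 7 of the 12 rose and 3 fell (median 0.27) beside a higher Cdkn1a, where 23.0% of all genes were called higher and 20.4% lower, for example Foxm1, which rose from a mean of 72.9 to 102 CPM (0.49, adjusted p = 7.9e-05). In the RYBP phase disruption cells 2 rose and 2 fell (median 0.04, beside 16.1% and 17.0% of all genes), with RYBP induction none was called (3.63% and 2.39% of all genes), and in the TF-AA mutation cells 1, Foxm1, fell (-0.28, adjusted p = 0.013), beside 14.4% of all genes higher and 16.1% lower.

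Among 16 genes whose proteins act on p53, more fell than rose in most tables. In the RYBP knockdown 8 fell and 4 rose (median -0.15), beside 26.0% of all genes lower and 26.8% higher. Cdkn2a, which encodes the MDM2 inhibitor p19ARF as well as p16, rose there from 12.57 and 12.61 CPM to 21.5 and 22.2 (0.80, adjusted p = 8.8e-07), and Usp7, a deubiquitinase of both MDM2 and p53, fell from 409.9 and 391 to 308 and 300.5 CPM (-0.40, adjusted p = 4.9e-07). Counts per gene do not separate the p19ARF and p16 transcripts. Beside 22.7% of all genes lower and 22.8% higher, 8 fell in the Rybp knockout and 1, Cdkn2a, rose, from 11.5 and 12.5 CPM to 18.1 and 17.2 (0.56, adjusted p = 6.8e-07).

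Of the 16 genes, 7 rose and 5 fell in the WDR5 knockdown (median 0.05), beside 31.5% of all genes in each direction. Rpl11, a ribosomal protein that can hold MDM2 away from p53, fell there from 796 and 761.5 CPM to 446 and 456 (-0.79, adjusted p = 1.4e-13). In the RYBP phase disruption cells 10 fell and 1 rose (median -0.18), beside 16.1% of all genes higher and 17.0% lower. Sirt1, a deacetylase of p53, fell there from 321 and 308 to 256 and 243 CPM (-0.33, adjusted p = 7.1e-07). This count of 11 called genes was 6 with DESeq2 or with scaling by library size alone, 7 with no filter on low counts, 5 without WT.RYBP replicate 1, and 7 without WT.RYBP replicate 2 or without deletion replicate 1. Of the 16 genes, 8 fell and 1 rose in the rTRS libraries labelled DOX (20.4% and 23.0% of all genes), 5 fell and 4 rose in the TF-AA mutation cells (16.1% and 14.4%), and 1 fell and 1 rose with RYBP induction (2.39% and 3.63%).

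**Figure D4:**
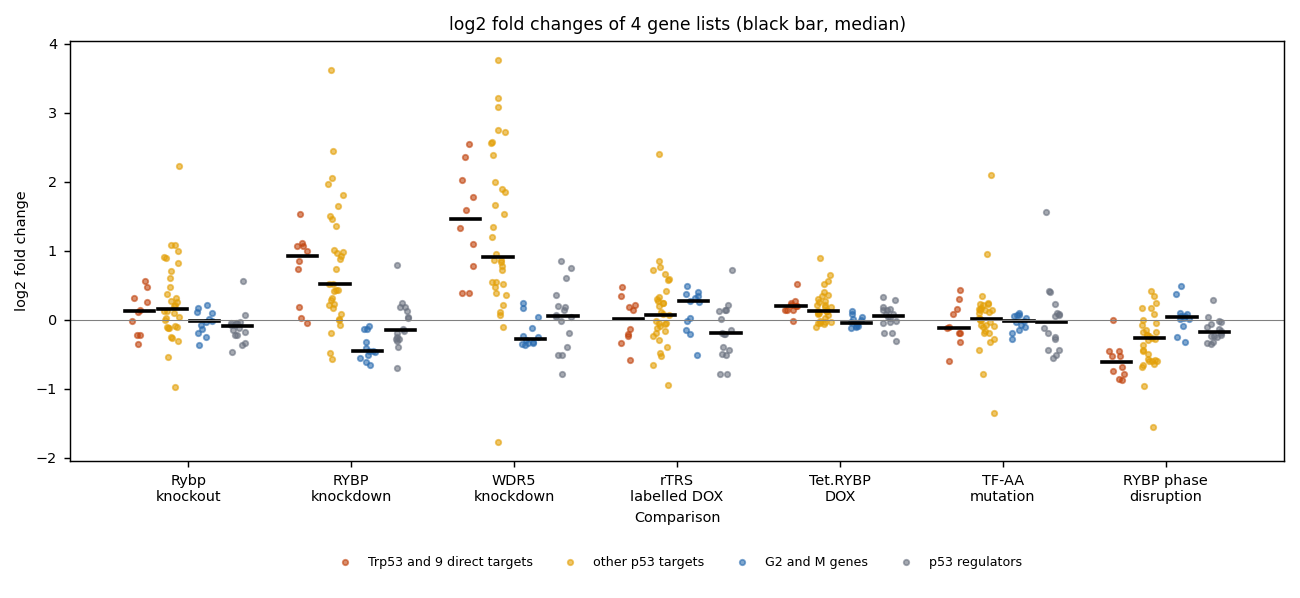
Fitted log2 fold change (vertical axis) of every tested gene of 4 lists in each comparison, 1 point per gene and a black bar at the list median. The lists were chosen with earlier results of these data known. The p53 target lists lie above 0 in the knockdowns of WDR5 (medians 1.45 and 0.90) and RYBP (0.93 and 0.51) and below 0 in the RYBP phase disruption cells (-0.60 and -0.27), while the medians of the G2 and M genes lie below 0 in both knockdowns (-0.45 and -0.27).

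Markers of other cell types moved in several of these comparisons. The 4 trophectoderm markers, Cdx2, Gata3, Tfap2c and Krt8, had counts in all libraries of both knockdowns, and their summed level was 106 and 118 CPM in shEV against 248 and 259 in shRybp, where all 4 were called higher. In the WDR5 knockdown the sum was 100.5 and 112 CPM against 239 and 245.5, but only Tfap2c (mean 73.2 against 207 CPM) and Gata3 (1.20 against 5.24) were called higher. Krt8 (30.7 against 29.1 CPM, adjusted p = 0.42) and Cdx2 (adjusted p = 0.52) overlapped between the groups. The 4 primitive endoderm markers, Gata4, Gata6, Sox17 and Pdgfra, summed to 6.31 and 9.31 CPM in shEV and 30.4 and 30.2 in shWdr5, where all 4 were called higher and Gata6 went from a mean of 2.49 to 18.3 CPM. Beside shRybp the sum was 6.17 and 9.38 CPM against 15.2 and 16.6, with 3 of 4 called higher. ESC markers summed to 5275 and 5469 CPM in shEV against 4394 and 4401 in shRybp, and to 4963 and 5145 against 4118 and 4136 in shWdr5. Not every ESC marker went with its sum: in shRybp 3 were called lower, Sox2 was not called and Nanog was called higher (0.22, adjusted p = 0.00012), and in shWdr5 4 were called lower and Sox2 higher (0.24, adjusted p = 4.1e-05).

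The trophectoderm sum was 194 and 192 CPM in the rTRS NTC libraries against 651 and 620.2 in those labelled DOX, with 3 of 4 called higher, and the ESC sum was 3655 and 3517 against 2211 and 2109 CPM. Mesoderm markers summed to 3.09 and 2.68 CPM against 32.8 and 31.3 there, carried by T (mean 1.51 against 30.6 CPM), while Mesp1 and Mixl1 were not called. The part of these markers in the values of the p53 targets was not tested.

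The 5 fibroblast markers, Col1a1, Col1a2, Col3a1, Thy1 and Twist2, summed to 55.6 and 54.95 CPM in Rybp+/+ and 111.5 and 116.5 in Rybp-/-, where all 5 were called higher. All 4 trophectoderm markers were called higher in Rybp-/- as well (sums of 128 and 128.5 against 155 and 159 CPM), and the primitive endoderm sum was 4.16 and 5.13 against 8.91 and 8.78 CPM, with 2 of 4 called higher. Fibroblast markers also summed to 18.7 and 18.9 CPM in shEV against 32.2 and 31.5 in shRybp, with all 4 of those tested called higher, and to 11.7 and 11.0 CPM in WT ESC against 24.1 and 24.7 in TF-AA, with all 3 tested called higher. In TF-AA both trophectoderm markers tested, Tfap2c and Krt8, were called higher too (sums over all 4 of 63.4 and 62.8 against 85.7 and 77.9 CPM). Fibroblast markers were highest in the RYBP phase disruption table, at 418 and 410 CPM in the WT RYBP cells and 332 and 358 CPM in the deletion cells, all 5 with counts in every library, and that table also had the lowest ESC sums, from 1850 to 1931 CPM. Mesoderm markers summed there to 15.9 and 20.8 CPM in WT RYBP and 7.40 in both deletion libraries, with Mesp1 at 0 in 3 of the 4. Trophectoderm markers lay the other way there, at 284 and 291.7 CPM in WT RYBP and 368 and 391 in the deletion cells, with 3 of 4 called higher. The part of these markers in the values of the 10 genes was not tested either.

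The genes whose pattern was most like that of Cdkn1a were sought among 13126 genes tested in all 7 comparisons, by the root mean squared difference of their 7 log2 fold changes. The 5 nearest were Rap2b (0.217), Efs (0.244), Mfge8 (0.262), Arl8a (0.265) and Fam83h (0.267). Rap2b, a small GTPase, is also on the list of 32 p53 targets. Of the 10 genes, Ccng1 ranked 12, Trp53inp1 16, Phlda3 21 and Mdm2 41 among the 13126, whereas Zmat3 ranked 215, Eda2r 325, Sesn2 1724, Bbc3 2133 and Trp53 2659. Since the knockdowns share controls and Cdkn1a was changed most there, these ranks are a description that rests mainly on those comparisons.

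ChIP-seq peaks at the promoters of the 10 genes were read from 14 lists, a single list for each antibody and group, so no test was made. A peak counted when it overlapped the 1 kb on either side of an annotated start. All 10 genes carried a peak of H3K27ac, a mark of active promoters and enhancers, in Rybp+/+ and in Rybp-/-, as did 71.8% and 75.7% of the 15042 coding genes tested by RNA-seq in the Rybp knockout. All 10 also carried H3K4me3, the mark laid down at active promoters by WDR5-containing complexes, beside 89.9% and 90.0% of those genes. At Cdkn1a the only H3K4me3 peak counted in Rybp+/+, chr17:29230215-29233768, lies near a downstream annotated start. It does not reach the most upstream start, at 29227924, beside which the exact p53 site lies.

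The fold enrichment of H3K27ac ran from 17.2 at Zmat3 to 44.6 at Trp53inp1 for 9 of the genes in Rybp+/+, and was lower at Cdkn1a, at 12.5. The median of 4.12 in that list is over all peaks, at promoters or elsewhere, and the strongest peaks of other promoters were not compared. In Rybp-/- the values were 13.9 at Cdkn1a, 16.7 at Zmat3 and up to 39.3 at Trp53. At Mdm2 they were 40.3 and 38.6, and at Phlda3 41.9 and 31.5. Without replicate lists these pairs carry no error and no direction is drawn from them.

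A WDR5 peak lay at 9 of the 10 promoters in both genotypes, all but Eda2r, beside 65.3% and 68.4% of tested coding genes. The enrichment at these promoters was 3.37 to 10.2 in Rybp+/+ and 3.11 to 10.9 in Rybp-/-, with Ccng1 the highest in both. In the WDR5 knockdown, made in R1 cells rather than the Rybp+/+ cells of the peak lists, Ccng1 rose by 1.78 on the log2 scale. Phlda3, with the lowest enrichment in Rybp+/+, rose by 1.58. Eda2r, with no WDR5 peak, rose by 1.10, between Zmat3 at 1.32 and Sesn2 at 0.78, which both had one. A link between these peaks and the changes was not tested.

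RING1B, the catalytic subunit of Polycomb complex 1, had peaks at 5 of the 10 promoters in shEV, 6 in shStat3, 7 without DOX and 5 with DOX in the Tet.Rybp.Stat3 cells, beside 59.8%, 54.0%, 72.4% and 54.1% of tested coding genes. Cdkn1a, Phlda3, Bbc3 and Zmat3 had one in each of the 4 lists, and Phlda3 had the highest enrichment in each, from 5.40 in shEV to 14.8 in shStat3. Ccng1 and Eda2r had none in any of them.

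STAT3 peaks were rarer in most lists. They lay at Mdm2 and Bbc3 in Rybp+/+ and at Mdm2, Bbc3 and Zmat3 in Rybp-/-, where 9.9% and 8.6% of tested coding genes had one. Without DOX in the Tet.Rybp.Stat3 cells they lay at Trp53inp1, Phlda3 and Bbc3, beside 12.1% of genes. With DOX they lay at 8 of the 10 promoters, all but Trp53 and Eda2r, beside 75.1% of genes, in a list that held 30663 peaks against 2816 without DOX. Bbc3 was the only one of the 10 genes with a STAT3 peak in all 4 lists.

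**Figure D5:**
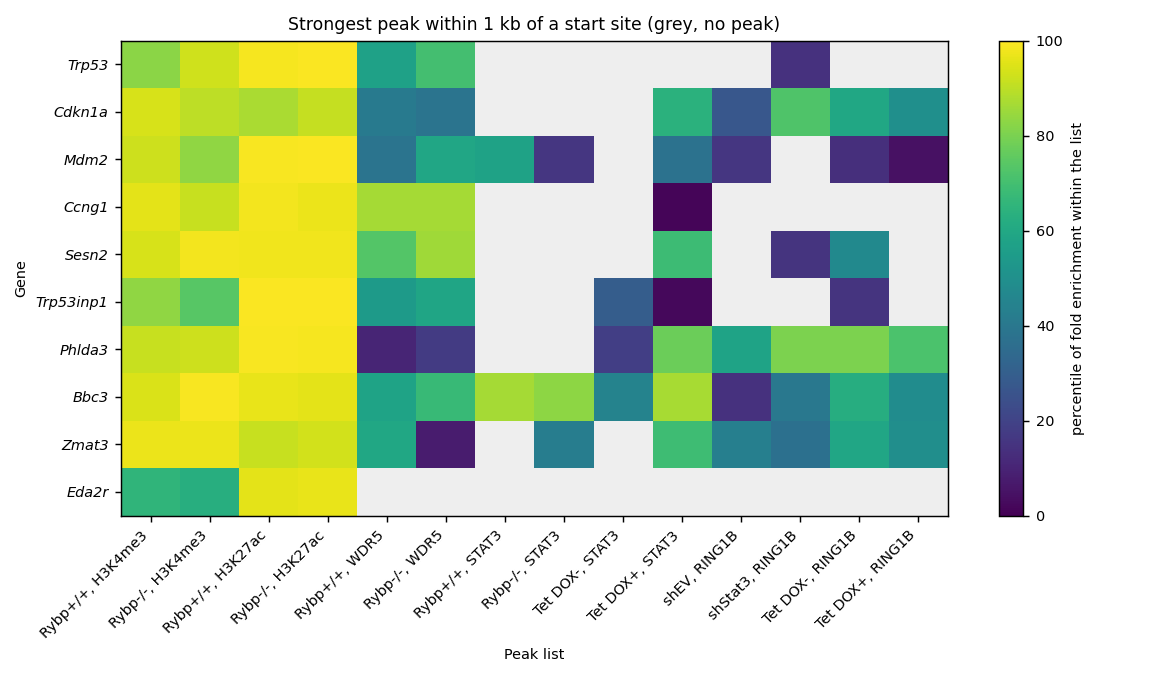
For each of the 10 genes (rows) and each of 14 peak lists (columns), the percentile, within its own list, of the fold enrichment of the strongest peak within 1 kb of a start site, with grey where no peak was listed. H3K27ac peaks of the 10 genes stand at percentiles of 87.2 to 99.4 in Rybp+/+, and Eda2r is grey in all WDR5, STAT3 and RING1B lists. Percentiles are among all peaks of a list, at promoters or elsewhere.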

How the data were processed

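Total RNA of mouse ESCs was sequenced, and the authors trimmed reads with Trim Galore, aligned them with STAR to mm9 and counted them per gene with HTSeq, as their processing notes list. Whether strand was used in counting is not given in the sources used here. The deposited counts are whole numbers in 7 tables, each analysed alone except in the interaction model of knockdown and knockout. The 2 shEV libraries appear in both knockdown tables, with 0.509 and 0.506 of the counts in the WDR5 table, and were never joined across them. HTSeq summary rows stayed out of library sizes (up to 6.59% of reads with no feature, 19.45% not unique, 3.04% ambiguous and 49.5% not aligned, and none listed in the Tet.RYBP table). Control columns headed only WT or NTC in the TF-AA, phase disruption and Tet.RYBP tables were matched to the controls that the labels give beside their perturbed columns. The columns headed S5-DOX_R2 and RphaseMut_R2, whose names differ from those of their first replicates, were taken as replicate 2 of rTRS DOX and of phase disruption. Peak lists were made by the authors with Bowtie2 and MACS2, from merged replicates for 10 lists and from a single sample for 4. The deposited peak values used are fold enrichment, a ratio over control, and the −log10 q-value.

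Counts were fitted per table with edgeR 4.0.16 (limma 3.58.1, R 4.3.3): filterByExpr, TMM factors, glmQLFit and glmQLFTest between the 2 groups, with Benjamini-Hochberg adjustment over all genes tested and calls at 0.05. The interaction model took the same steps over the RYBP knockdown and Rybp knockout libraries together, with filter, factors and dispersions shared. DESeq2 1.42.0, other scaling, other filters and left-out libraries were alternatives. Scripts were tested on simulated counts. FPKM divides the CPM by the counted exon length. Promoter windows and p53 letters used mm9 with GENCODE vM1, and figures used matplotlib 3.10.9. The genes named were the 10 by symbol, Rybp, Wdr5 and Stat3 as label checks, at most 4 of each pathway list by size of change among those called with at least 5 CPM, and the 5 genes most like Cdkn1a. The members and lists were chosen with earlier results of these data known.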

Additional observations from a re-analysis of the deposited data

Results flagged for a closer look

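The changes of all 10 genes differed between the RYBP knockdown in R1 cells and the Rybp knockout in R7.15 cells by the interaction test of edgeR. The difference in log2 fold change, knockdown minus knockout, was 1.20 for Mdm2, 0.97 for Trp53inp1, 0.94 for Zmat3, 0.86 for Eda2r, 0.72 for Ccng1, 0.57 for Cdkn1a, 0.48 for Phlda3, 0.39 for Sesn2, 0.36 for Bbc3 and -0.21 for Trp53, with adjusted p from 4.6e-13 for Mdm2 to 0.0025 for Bbc3. The value of Trp53 was -0.05 (adjusted p = 0.48) with scaling by library size alone, and that of Bbc3 was 0.35 (adjusted p = 0.073) in DESeq2. The cell line, the use of 4-OHT and the Rybp mRNA counted differ together between the experiments and cannot be told apart.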

How the results depend on the processing

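All 10 genes kept their direction and their side of the threshold in every setting tried in the WDR5 knockdown; this held for 9 of 10 in the RYBP phase disruption cells, 8 in the Rybp knockout, 7 in the RYBP knockdown, 5 in the rTRS libraries labelled DOX, 3 with RYBP induction, 3 in the TF-AA mutation cells and 8 for the knockdown minus knockout difference. Signs turned with left-out libraries for Eda2r in the Rybp knockout (-0.056 to 0.0054, turned without Rybp-/- replicate 1), for Bbc3 in the RYBP knockdown (-0.12 to 0.17, turned without shEV replicate 1, and -0.019 without shRybp replicate 1), for Trp53 with RYBP induction (-0.053 to 0.0066, turned without vehicle replicate 1 or DOX replicate 1), for Bbc3 (-0.48 to 0.18) and Eda2r (-0.052 to 0.23) in the TF-AA mutation cells, both turned without WT ESC replicate 1, and for Trp53 in the phase disruption cells (-0.043 to 0.015, turned without WT.RYBP replicate 2). With library size alone Trp53 was 0.11 in the RYBP knockdown and 0.044 in the phase disruption cells. With a log2 fold change above 1 in size asked as well, the genes called were 0 in the Rybp knockout (7.84% of all genes), 4 in the RYBP knockdown (12.6%) and 7 in the WDR5 knockdown (18.6%). They were 0 in each of the other 4 comparisons, beside the shares of all genes given above. Leaving out 1 library gave 1 to 6 called genes with RYBP induction (2 with all; 1 without either DOX library, 6 without vehicle replicate 2) and 2 to 6 in the TF-AA mutation cells (4 with all; 2 without TF-AA replicate 2). Over all genes, DESeq2 called 2903 in place of 4412 for TF-AA and 2659 in place of 4814 for phase disruption, and left-out libraries gave 406 to 1566 in place of 899 with RYBP induction. Counts called in the 3 gene lists moved by over 1.5 times in 16 of 84 fits without 1 library and 6 of 126 other fits, none of them in either knockdown or in rTRS: apart from the knockout and phase disruption counts given above, called regulators with RYBP induction were 5 without either vehicle library, 1 without DOX replicate 1 and 0 without DOX replicate 2 in place of 2, G2 and M genes 4 and 2 without vehicle replicate 1 and 2 in place of 0 (1 with the block or no filter), and other targets 3 without DOX replicate 1 in place of 5. In TF-AA, other targets were 3 without TF-AA replicate 2 in place of 6, and G2 and M genes 0 without either TF-AA library and 2 without either WT ESC library or with the block in place of 1. At a −log10 q of at least 5, promoters with a peak were 0 for STAT3 without DOX, 1 for STAT3 in Rybp+/+, 1 in Rybp-/- and 2 for RING1B in shEV. With the replicate number as a block, which the labels do not say marks a shared batch, 4 genes were called with RYBP induction in place of 2, 10 in the rTRS libraries in place of 7 and 5 in the TF-AA mutation cells in place of 4, while calls over all genes went from 899 to 1211, 7070 to 8559 and 4412 to 5525; deviations of same-numbered libraries correlated at -0.019 to 0.37, with 2 pairs in each comparison. The cause of these shifts was not tested.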
